A study of Mus musculus with 10 samples.

Results

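A set of 8 genes for pattern receptors of the myeloid surface, members of the C-type lectin and Trem (triggering receptor expressed on myeloid cells) families, were followed in mouse blood: Clec4e, Clec4d, Clec4n, Clec7a, Clec12a, Clec4a2, Trem1 and Trem3. They were picked by name, with earlier results of these data known, and 7 of the 8 were found among the 32285 genes of the count table. Clec7a was not analysed here. RNA was sequenced from blood of C57/BL6J mice, and the labels give leukocyte as the cell type. Sleep deprivation (SD) was sampled at 6, 12, 24 and 48 h, a sleep restriction method that had been reported before (SASD) at 6, 12, 24, 48 and 120 h, and a control (Con) at 0 h. Each of these 10 groups was 1 library made from pooled blood RNA of 3 mice. A ratio between single libraries therefore had no replicate check, and p-values of fits over several times measured the spread between pooled libraries and times, part of which may be technical. The mice carried no transgene or deletion that the labels name, and how SD and SASD were carried out, their ages and the hour of sampling were not stated in the labels.

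Myeloid C-type lectins bind sugars and glycolipids of fungi and bacteria as well as material from dying cells. Clec4e (Mincle), Clec4d (MCL) and Clec4n (Dectin-2) signal through the adaptor Fcer1g to the kinase Syk and the scaffold Card9, which leads to cytokine genes such as Il1b. Trem1 and Trem3 signal through another adaptor, Tyrobp (DAP12), and Trem1 is known for amplifying inflammatory signals in neutrophils and monocytes. Clec12a (MICL) and Clec4a2 (DCIR) carry inhibitory motifs in their tails, which recruit the phosphatase Ptpn6 or its relatives and restrain the activating receptors.

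Of the 7 measured genes, 4 lie in 1 cluster on chromosome 6, 2 lie next to each other on chromosome 17, and Clec12a lies farther along chromosome 6. RefSeq promoter windows were matched for 5 of the 7. The windows run from 250 bases before to 50 bases after the annotated start in the GRCm38.p6 build. Those of Clec4e, Clec4d and Trem1 are shown because these genes stood high together under SD, and that of Clec12a because it did not part the methods at 48 h. Capitals mark matches on either strand to the letters TTGCNNAA (the C/EBP core), GAGGAA (a PU.1 core), TGANTCA (the AP-1 site) or TATAAA (the TATA box), none of which overlapped each other here.
Clec4e promoter, chr6:123289822-123290121, minus strand: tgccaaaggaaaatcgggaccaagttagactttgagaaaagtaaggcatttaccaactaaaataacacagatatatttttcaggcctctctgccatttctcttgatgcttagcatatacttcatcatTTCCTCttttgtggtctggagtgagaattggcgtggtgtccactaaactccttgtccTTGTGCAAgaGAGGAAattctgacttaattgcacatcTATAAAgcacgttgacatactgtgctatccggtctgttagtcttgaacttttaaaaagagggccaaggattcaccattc
Clec4d promoter, chr6:123261857-123262156, plus strand: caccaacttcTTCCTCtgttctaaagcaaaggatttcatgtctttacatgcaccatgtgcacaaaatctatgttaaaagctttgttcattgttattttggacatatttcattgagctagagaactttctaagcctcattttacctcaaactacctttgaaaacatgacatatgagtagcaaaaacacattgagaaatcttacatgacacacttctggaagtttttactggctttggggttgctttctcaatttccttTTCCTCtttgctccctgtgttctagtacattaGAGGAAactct
Trem1 promoter, chr17:48232489-48232788, plus strand: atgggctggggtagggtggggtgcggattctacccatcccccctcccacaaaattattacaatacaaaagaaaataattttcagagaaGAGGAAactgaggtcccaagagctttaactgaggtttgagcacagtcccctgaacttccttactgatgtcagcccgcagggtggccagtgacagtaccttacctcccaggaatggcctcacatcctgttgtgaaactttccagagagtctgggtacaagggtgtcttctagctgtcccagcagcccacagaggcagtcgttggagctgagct
Clec12a promoter, chr6:129349994-129350293, plus strand: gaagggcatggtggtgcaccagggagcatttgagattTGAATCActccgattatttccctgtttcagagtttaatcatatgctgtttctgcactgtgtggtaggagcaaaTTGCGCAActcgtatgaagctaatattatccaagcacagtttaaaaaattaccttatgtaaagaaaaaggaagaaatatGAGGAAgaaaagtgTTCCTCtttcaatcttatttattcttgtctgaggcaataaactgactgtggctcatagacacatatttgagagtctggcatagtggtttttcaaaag
The Clec4e window held a TATAAA match at position -29 from the start, a C/EBP match at -66 and PU.1 matches at -56 and -123. Clec4d had PU.1 matches at -240, 7 and 39, and Trem1 had 1 at -162. The Clec12a window held PU.1 matches at -47 and -61, a C/EBP match at -140 and an AP-1 match at -213. The window of Clec4a2, which is not shown, held an AP-1 match at 31 and a TATAAA match at -161. None of the 5 windows held the NF-kB letters, GGG and TTCC with any 3 bases between them. Among 32851 promoters of the same length, 28.3% held the PU.1 letters, 10.8% the C/EBP letters, 13.6% TATAAA, 7.81% the AP-1 letters and 5.56% the NF-kB letters. The RefSeq starts of Clec12a and Clec4a2 differ from the gene starts of the GENCODE annotation used for the positions below, so these 2 windows may not be the promoter in use.

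Total counts ran from 7825120 to 27501393 per library. Haemoglobin genes took 0.275% to 0.727% of the counts in SD 48 h, SASD 48 h and Con, and 3.57% to 6.96% in the other 7 libraries. SD and SASD libraries of the same time always lay on the same side of this split, whereas values set against Con crossed it at 6, 12, 24 and 120 h. The split was not in haemoglobin alone. Of 1134 olfactory receptor genes, 312 had a count in SD 48 h, 700 in SASD 48 h and 874 in Con. In the other 7 libraries 30 to 57 had one. The 48 h libraries were thus not alike in this respect, and the cause was not tested. These numbers were not scaled for depth, and total counts were 13927134 in SD 48 h, 24818986 in SASD 48 h and 27501393 in Con. Markers of B cells, T cells, NK cells, platelets, neutrophils and monocytes were all detected. No marker of the mature neutrophil, classical monocyte or nonclassical monocyte lists was at 0 in every library.

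Clec4e, a lectin for mycobacterial glycolipid and for a protein of dying cells, lies at chr6:123281789-123289870 on the minus strand (mm10, GENCODE release M21). Its level was 36.0, 84.4, 91.7 and 123 CPM (counts scaled to equal library size by TMM factors) at 6, 12, 24 and 48 h of SD, against 28.9, 21.4, 33.1, 25.9 and 24.8 CPM at 6, 12, 24, 48 and 120 h of SASD and 20.3 CPM in Con. All 4 SD libraries lay above the other 6, though the counting intervals of SD 6 h and SASD 24 h overlapped. SASD 6 h, 24 h and 48 h lay above Con beyond their counting intervals, and those of SASD 12 h and 120 h overlapped with that of Con. The ratio of SD over SASD was 1.24 at 6 h (95% counting interval 1.07 to 1.45), 3.95 at 12 h (3.37 to 4.63), 2.78 at 24 h (2.39 to 3.23) and 4.75 at 48 h (4.35 to 5.18). SD 48 h stood 6.05 times as high as Con (5.53 to 6.62), and SASD 48 h 1.27 times as high (1.15 to 1.42). These intervals cover counting error only. In blood as a whole, more cells of a type and more RNA per cell cannot be told apart, and this holds for every level given here.

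Clec4d, which pairs with Clec4e and shares its glycolipid ligand, is its neighbour at chr6:123262111-123275265 on the plus strand. It had 67.5, 127, 134 and 172 CPM at 6, 12, 24 and 48 h of SD, against 65.2, 53.5, 77.1, 46.5 and 48.7 CPM under SASD (6 to 120 h) and 61.5 CPM in Con. The SD libraries from 12 h on lay above all others, while SD 6 h fell inside the SASD range. SD over SASD gave 1.04 at 6 h (0.931 to 1.15), 2.37 at 12 h (2.13 to 2.63), 1.74 at 24 h (1.57 to 1.93) and 3.70 at 48 h (3.46 to 3.96). SD 48 h stood at 2.80 times Con (2.64 to 2.97). SASD 48 h was below Con, at a ratio of 0.756 (0.705 to 0.811).

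Clec4n, the receptor for fungal mannans at chr6:123229843-123247021, was the least abundant of the 7, with 10 to 65 counts per library. It had 3.06, 5.34, 5.82 and 4.45 CPM at 6, 12, 24 and 48 h of SD, against 3.52, 2.06, 1.53, 2.29 and 2.82 CPM under SASD (6 to 120 h) and 1.89 CPM in Con. SD libraries from 12 h on lay above all others. The ratio of SD over SASD was 0.868 at 6 h (0.524 to 1.43), 2.59 at 12 h (1.51 to 4.63), 3.805 at 24 h (1.94 to 8.32) and 1.94 at 48 h (1.36 to 2.78), intervals so wide that the order of the later times was not detectable at this depth.

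Trem1, the amplifier of Toll-like receptor signals, lies at chr17:48232768-48246924. It had 33.3, 88.0, 94.0 and 122 CPM at 6, 12, 24 and 48 h of SD, against 31.2, 25.3, 40.2, 21.6 and 17.8 CPM under SASD (6 to 120 h) and 19.6 CPM in Con. Its SD libraries from 12 h on stood clear of the rest, and SASD 24 h was above SD 6 h. The ratio of SD over SASD was 1.07 at 6 h (0.916 to 1.25), 3.48 at 12 h (3.01 to 4.04), 2.34 at 24 h (2.04 to 2.69) and 5.67 at 48 h (5.17 to 6.22), the last being the highest ratio of any of the 7 genes at a shared time. SD 48 h stood at 6.24 times Con (5.70 to 6.84), and SASD 48 h at 1.10 times Con (0.984 to 1.23). Within SASD it was 0.443 times as high at 120 h as at 24 h (0.366 to 0.536).

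Trem3, a Tyrobp-coupled receptor of mice that is a pseudogene in humans, follows Trem1 at chr17:48247777-48258841. It had 15.1, 25.8, 32.6 and 41.6 CPM at 6, 12, 24 and 48 h of SD, against 14.7, 11.2, 11.2, 16.7 and 11.3 CPM under SASD (6 to 120 h) and 10.3 CPM in Con. The SD values stood in the order of time and those from 12 h on lay above all SASD libraries and Con. SD over SASD was 1.02 at 6 h (0.815 to 1.29), 2.31 at 12 h (1.83 to 2.93), 2.92 at 24 h (2.26 to 3.81) and 2.49 at 48 h (2.21 to 2.82). SD 48 h stood at 4.04 times Con (3.53 to 4.63), and SASD 48 h at 1.62 times Con (1.41 to 1.87).

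Clec12a, an inhibitory receptor that senses uric acid crystals and dampens Syk signals, lies at chr6:129342691-129365303. It had 20.8, 27.1, 53.9 and 59.7 CPM at 6, 12, 24 and 48 h of SD, against 34.2, 18.9, 20.7, 61.4 and 50.5 CPM under SASD (6 to 120 h) and 30.6 CPM in Con. SD 24 h, SD 48 h, SASD 48 h and SASD 120 h were the 4 high libraries, so the methods overlapped. SD over SASD was 0.610 at 6 h (0.513 to 0.723), 1.43 at 12 h (1.18 to 1.75), 2.61 at 24 h (2.16 to 3.17) and 0.972 at 48 h (0.895 to 1.06). Both 48 h libraries stood above Con, at ratios of 1.95 for SD (1.78 to 2.14) and 2.01 for SASD (1.86 to 2.17). SASD 120 h was 2.45 times as high as SASD 24 h (2.02 to 2.98).

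Clec4a2, an inhibitory lectin of dendritic cells and monocytes at chr6:123106428-123143999, was highest in SD 48 h. Its similar neighbours Clec4a1, Clec4a3 and Clec4a4 may share reads with it, which makes its counts uncertain, since reads that mapped to several places were not counted. It had 11.7, 10.6, 21.2 and 29.5 CPM at 6, 12, 24 and 48 h of SD, against 12.4, 5.97, 5.97, 15.3 and 14.6 CPM under SASD (6 to 120 h) and 7.94 CPM in Con. SD 24 h and SD 48 h were the highest, and SASD 48 h and SASD 120 h came next. SD over SASD was 0.950 at 6 h (0.736 to 1.22), 1.77 at 12 h (1.27 to 2.50), 3.56 at 24 h (2.52 to 5.13) and 1.93 at 48 h (1.69 to 2.22). SD 48 h stood at 3.72 times Con (3.18 to 4.35), and SASD 48 h at 1.92 times Con (1.64 to 2.25). SASD 120 h was 2.45 times as high as SASD 24 h (1.72 to 3.58).

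**Figure D1:**
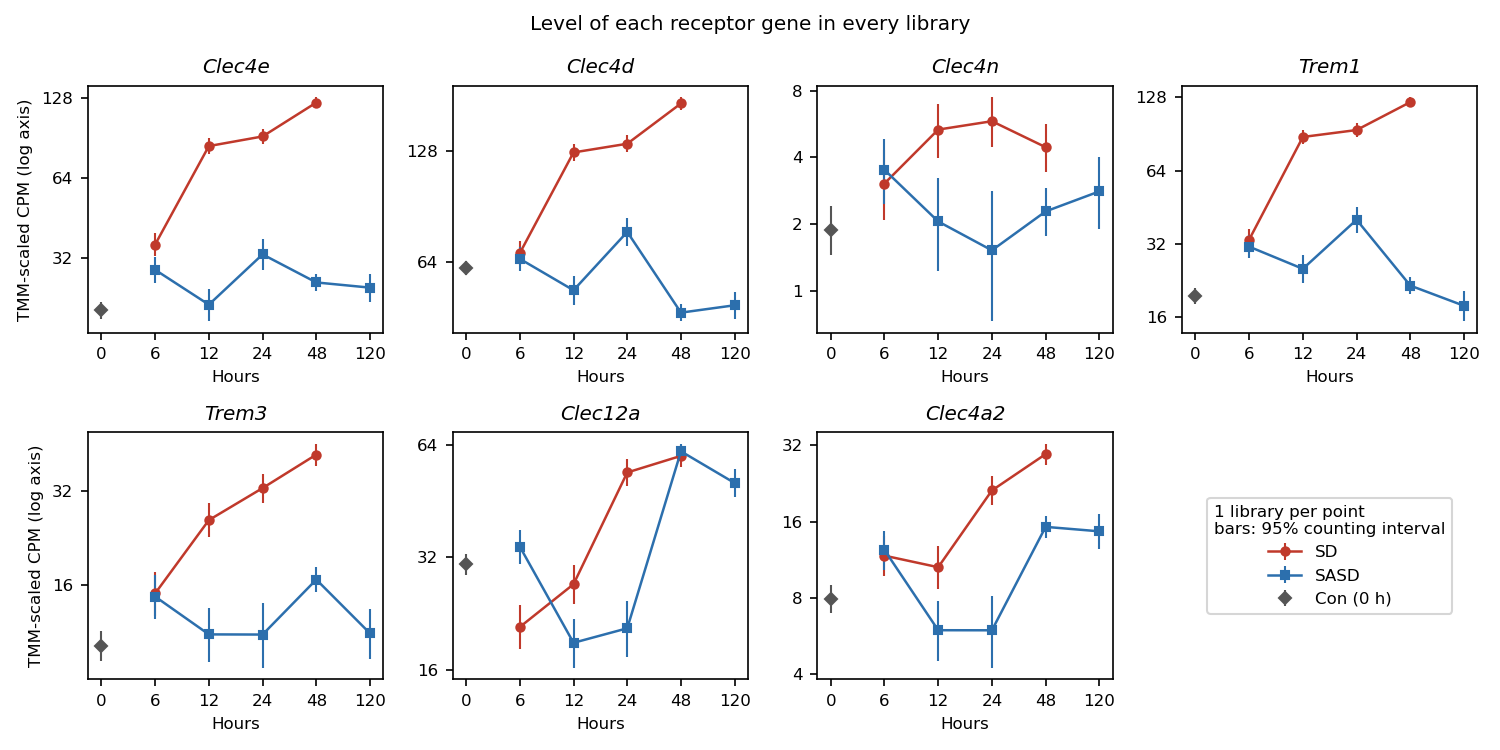
Level of each of the 7 receptor genes (TMM-scaled CPM, 1 panel per gene) against hours in SD, SASD and Con, with bars for the 95% counting interval of each library. Clec4e, Clec4d, Trem1 and Trem3 reach 123, 172, 122 and 41.6 CPM at SD 48 h. The highest SASD points of Clec4e, Clec4d and Trem1 are 33.1, 77.1 and 40.2 CPM at 24 h, and that of Trem3 is 16.7 CPM at 48 h. Clec12a reaches 59.7 CPM at SD 48 h and 61.4 CPM at SASD 48 h.

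Levels of different genes can be set side by side only per length of exon. On that scale Clec4d had the highest median over the 10 libraries, 41.5 CPM per kilobase, followed by Trem3 at 15.0, Trem1 at 10.8, Clec4e at 6.24, Clec12a at 5.86, Clec4a2 at 4.12 and Clec4n at 2.07 CPM per kilobase. From its lowest to its highest library, Trem1 spanned 6.86 times, Clec4e 6.05 times and Clec12a 3.25 times in level. Ordered from the top, SD 48 h stood above SD 24 h beyond their counting intervals for Clec4d, Clec4e, Trem1 and Trem3. The intervals of SD 24 h and SD 12 h overlapped for Clec4d, Clec4e and Trem1, and lay apart for Trem3. SD 12 h then lay apart from the next lower library in all 4 of these genes. For Clec4n the intervals of all neighbours in the order overlapped.

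Genes at least 2-fold higher under SD were more frequent after 6 h, among the receptor genes and in the whole table. At 6 h of SD over SASD, 0 of 7 receptor genes were at least 2-fold higher. Of all genes with enough counts 0.104% were, so this 0 says little about the receptor genes. By counting error alone, Clec4e at 1.24 (1.07 to 1.45) and Clec12a at 0.610 (0.513 to 0.723) already lay off 1 at 6 h. At 12 h 5 of 7 were at least 2-fold higher (2.83% of all genes), at 24 h 6 of 7 (3.88%) and at 48 h 4 of 7 (4.14%). The median log2 ratio of the 7 genes was 0.03, 1.24, 1.47 and 1.31 at 6, 12, 24 and 48 h, beside 0.02, 0.00, 0.03 and 0.00 for all genes. SASD 24 h was the shallowest library, with the lowest TMM factor (0.835) and the highest summed platelet markers of the 10, 10706 CPM, against 4309 CPM in SD 24 h. At SD 24 h over SASD 24 h 6 of 7 platelet markers were at least 2-fold lower, with a median log2 ratio of -1.30 over the 7, and the 7 erythroid markers had a median of -0.77. The part of these shifts in the 24 h ratios was not tested. None of the 7 receptor genes was 2-fold lower under SD at any of these times, where 0.901%, 0.0974%, 3.2% and 1.63% of all genes were. At SD 48 h over Con 6 of 7 were at least 2-fold higher (4.42% of all genes), against 1 of 7, Clec12a, at SASD 48 h over Con (1.48%). These 2 comparisons share the Con library. At SASD 120 h over SASD 24 h 2 of 6 were at least 2-fold higher (3.14% of all genes) and 1 of 6 at least 2-fold lower (6.51%), Clec4n having too few counts there.

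**Figure D2:**
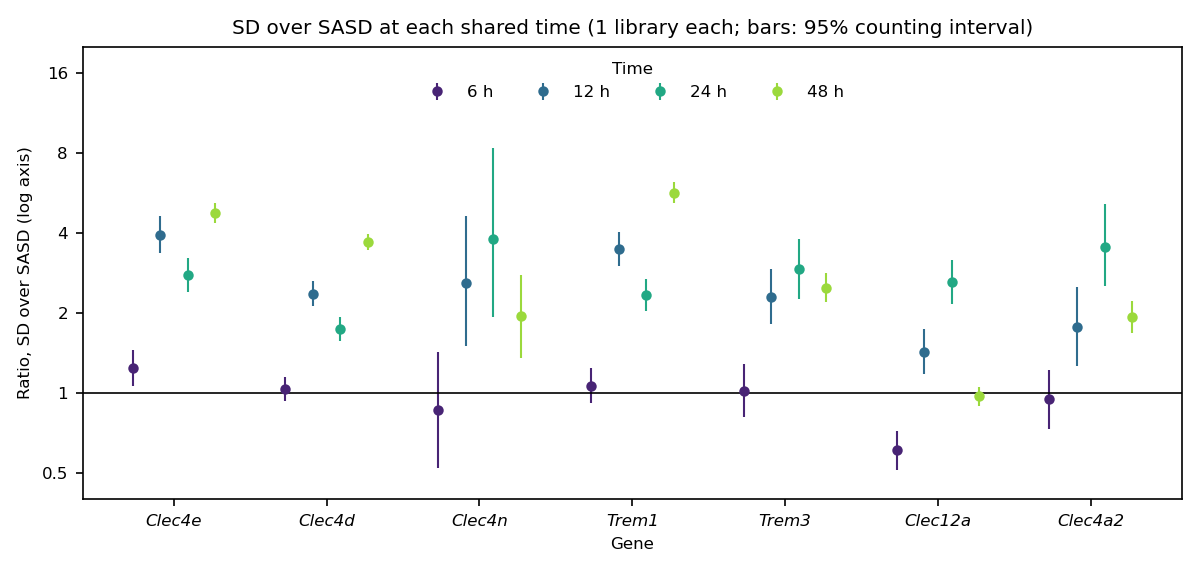
Ratio of SD over SASD (log axis) for the 7 receptor genes at 6, 12, 24 and 48 h, with 95% counting intervals. At 6 h the ratios lie between 0.610 and 1.24, and at 48 h Trem1 and Clec4e stand highest at 5.67 and 4.75 while Clec12a is at 0.972.

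Whether SD differed from SASD steadily over the 4 shared times was tested with time as a block over 8 libraries. All 7 genes had a log2 ratio above 0, where 49.2% of all genes did, and 6 of 7 reached an unadjusted p under 0.05 in that direction, where 6.07% of all genes did. No gene of the table passed edgeR's quasi-likelihood test after Benjamini-Hochberg adjustment: 0 of 13370 were called (0%), although 1082 had an unadjusted p under 0.05 in either direction, and DESeq2 called 169. Clec4e had a log2 ratio of 1.52 ± 0.29 (SE over 4 times, edgeR adjusted p = 0.310) and Trem1 1.42 ± 0.34 (0.315). Trem3 followed with 1.02 ± 0.23 (0.310) and Clec4d with 0.99 ± 0.26 (0.357). Clec4n had 0.94 ± 0.34 (0.545), Clec4a2 0.84 ± 0.27 (0.454) and Clec12a 0.25 ± 0.29 (0.856). DESeq2 called Clec4e (adjusted p = 1.50e-04), Trem1 (0.00294), Trem3 (0.0132) and Clec4d (0.0217) higher under SD, among 1.23% of all genes called higher.

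The 6 h libraries bore on this result. Without them edgeR called 237 genes, and the same 4 receptor genes were among the 1.76% of genes called higher under SD. Their log2 ratios were then 1.90 ± 0.17 for Clec4e (adjusted p = 0.0118), 1.84 ± 0.24 for Trem1 (0.0220), 1.34 ± 0.13 for Trem3 (0.0142) and 1.30 ± 0.21 for Clec4d (0.0422). Leaving out 12, 24 or 48 h instead gave 0 calls in the whole table. Without 24 h Clec12a turned to -0.09 ± 0.21. With no count minimum the 4 genes and Clec4a2 were called, at adjusted p-values from 1.96e-07 for Clec4e to 0.00483 for Clec4a2, among 1.37% of all genes called higher.

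Change with hours of SD was tested as a slope on log2(1 + hours/6), over Con and the 4 SD libraries. All 7 slopes were above 0 (46.3% of all genes) and all 7 had an unadjusted p under 0.05 (6.88% of all genes in that direction). None of the 7 was among the 18 of 14562 genes that edgeR called (0.124%, all rising), while 1515 genes had an unadjusted p under 0.05. DESeq2 called 456 genes, Clec4e, Trem1, Trem3, Clec4d and Clec4a2 being among the 2.9% of all genes it called rising. Per step of that time scale Trem1 had 0.86 ± 0.15 (SE, edgeR adjusted p = 0.131), Clec4e 0.83 ± 0.13 (0.0960) and Trem3 0.65 ± 0.07 (0.0616). Clec4a2 had 0.60 ± 0.09 (0.0867), Clec4d 0.49 ± 0.09 (0.139), Clec4n 0.44 ± 0.18 (0.480) and Clec12a 0.37 ± 0.14 (0.439). With a term for the haemoglobin split, Clec4e, Trem1, Trem3, Clec4d and Clec4a2 were called, at slopes of 0.82 ± 0.09, 0.85 ± 0.10, 0.65 ± 0.06, 0.49 ± 0.08 and 0.60 ± 0.08, among 4.32% of all genes called rising. Without SD 48 h Clec4e (1.01 ± 0.15, adjusted p = 0.0372), Trem1 (1.06 ± 0.17, 0.0391) and Trem3 (0.74 ± 0.09, 0.0322) were called, among 2.08% of all genes. Within the 3 SD libraries of high haemoglobin share, a fit added after the data had been seen, Clec12a (1.05 ± 0.14, adjusted p = 0.00452), Trem3 (0.80 ± 0.17, 0.0325) and Clec4e (0.94 ± 0.22, 0.0498) were called, among 2.29% of all genes. With only 3 libraries for an intercept and a slope, the SE and p-values of this fit rest largely on spread shared across genes. They are weak evidence for any single gene.

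Under SASD no such slope was detected. Over Con and the 5 SASD libraries 0 of 14602 genes passed edgeR's test (0%), although 443 had an unadjusted p under 0.05, and DESeq2 called 0. Clec12a had a slope of 0.22 ± 0.13, Clec4a2 0.19 ± 0.12, Clec4e 0.04 ± 0.07, Trem3 0.03 ± 0.08, Clec4n 0.02 ± 0.13, Trem1 -0.08 ± 0.12 and Clec4d -0.10 ± 0.07. The edgeR adjusted p was 0.9999 for each of the 7. Above 0 were 5 of 7 slopes, beside 46.7% of all genes, and 0 of the 7 had an unadjusted p under 0.05, which 1.2% of all genes reached with a slope above 0.

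The difference between the 2 trends was tested directly over 9 libraries with a shared Con. SASD 120 h was left out, so this fit covers 6 to 48 h, and its SASD slope is another one than that given above. Clec4e, Trem3 and Clec4d rose more with hours of SD than of SASD: 3 of 7 receptor genes were called, where 58 of 14138 genes were (0.41%, all higher under SD). The SD slope minus the SASD slope was 0.74 ± 0.10 for Clec4e (SE, edgeR adjusted p = 0.0267), 0.50 ± 0.07 for Trem3 (0.0290) and 0.51 ± 0.09 for Clec4d (0.0494). Trem1 had a slope difference of 0.72 ± 0.13 (0.0640), Clec4n 0.48 ± 0.14 (0.329), Clec4a2 0.39 ± 0.13 (0.431) and Clec12a 0.12 ± 0.15 (0.929), none of them past the threshold. All 7 slope differences were above 0 (46.4% of all genes), and 6 of 7 had an unadjusted p under 0.05 in that direction (5.57%). The median slope difference of the 7 genes was 0.50, beside -0.01 over all genes tested. DESeq2, no count minimum, a term for the haemoglobin split and leaving out Con each called Trem1 as well, at adjusted p-values of 1.19e-05, 0.0233, 0.00432 and 0.0312.

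These calls depended on single libraries. Without SD 12 h, SD 24 h, SD 48 h, SASD 12 h, SASD 24 h or SASD 48 h none of the 7 genes was called, but in the whole table these 6 fits called 1, 0, 1, 0, 0 and 0 genes (0.007%, 0%, 0.00705%, 0%, 0% and 0%). Over these 6 fits the edgeR adjusted p ran from 0.0687 to 0.123 for Clec4e, from 0.0695 to 0.129 for Trem3 and from 0.0687 to 0.160 for Clec4d, and the slope differences stayed between 0.68 and 0.83, 0.46 and 0.58, and 0.41 and 0.59. Clec4e and Trem3 were still called without SD 6 h (0.0442 and 0.0478) and without SASD 6 h (0.0418 and 0.0384), whereas Clec4d was not (0.0521 and 0.0976). Clec4d also lost its call with the other size factors, RLE (0.0518). On a scale of linear hours none was called, where 6 of 14138 genes were (0.0424%), with adjusted p-values of 0.131 for Clec4d, 0.199 for Clec4e and 0.206 for Trem3. Without Con and both 48 h libraries, all 6 remaining libraries being on one side of the haemoglobin split, Clec4e (0.78 ± 0.12, adjusted p = 0.0392), Trem3 (0.62 ± 0.10, 0.0403) and Trem1 (0.67 ± 0.13, 0.0457) were called, and Clec4d was not (0.44 ± 0.09, 0.0544), among 1.18% of all genes.

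**Figure D3:**
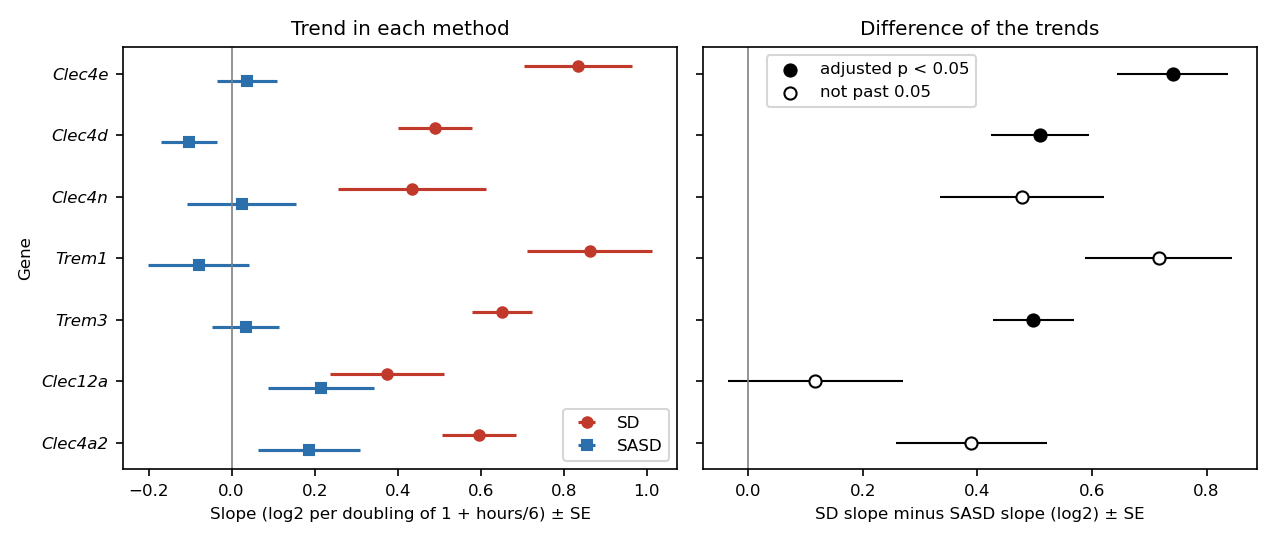
Left, slopes per step of the time scale for SD and SASD, and right, the SD slope minus the SASD slope, each with its SE, the left SASD slopes including SASD 120 h and the right values not, for the 7 receptor genes. Filled points mark an adjusted p under 0.05, which Clec4e, Clec4d and Trem3 reach at 0.74, 0.51 and 0.50, while the SASD slopes lie between -0.10 and 0.22.

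The summed mature neutrophil markers were highest in the 4 SD libraries. The 10 mature neutrophil markers, S100a8, S100a9, Csf3r, Cxcr2, Ly6g, Retnlg, Mmp8, Mmp9, Il1r2 and Hdc, summed to 3168, 6047, 7431 and 11630 CPM at 6, 12, 24 and 48 h of SD, against 2079 to 2855 CPM in the 5 SASD libraries and 2165 CPM in Con. All 10 had a log2 ratio of SD over SASD above 0, and 3 of the 10, S100a8, S100a9 and Retnlg, were called in the slope difference, whose median over the 10 was 0.80. Neutrophil precursor markers summed to 102 to 1727 CPM under SD, against 65.7 to 419.8 CPM under SASD and 137 CPM in Con. Classical monocyte markers, 8 genes, summed to 991 to 2232 CPM under SD, against 748 to 1599 CPM under SASD and 738 CPM in Con. Nonclassical monocyte markers, 6 genes, summed to 315 to 470 CPM under SD, against 265 to 656 CPM under SASD, whose highest library was SASD 48 h, and 315 CPM in Con. Dendritic cell markers summed to 42.9 to 78.0 CPM under SD, against 38.9 to 55.4 CPM under SASD and 53.9 CPM in Con. In the slope difference 0 of 10 precursor, 0 of 8 classical monocyte, 0 of 6 nonclassical monocyte and 0 of 6 dendritic cell markers were called, with medians of 1.26, 0.19, -0.08 and 0.16. Of all genes 0.41% were called. In these 4 lists 8 of 10, 2 of 8, 0 of 6 and 1 of 6 had an unadjusted p under 0.05 above 0, beside 5.57% of all genes. Platelet markers summed to 3172 to 6997 CPM under SD, against 1721 to 10706 CPM under SASD and 3164 CPM in Con. The part of cell numbers in the receptor results was not tested.

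Set against the summed neutrophil markers, Clec4e varied little. It stood at 1.14%, 1.40%, 1.23% and 1.06% of that sum at 6, 12, 24 and 48 h of SD, against 1.04%, 1.002%, 1.16%, 1.03% and 1.19% under SASD (6 to 120 h) and 0.940% in Con. The standard deviation of its log2 value over the 10 libraries was 0.167 on this relative scale and 0.953 for its level. The same pair of standard deviations was 0.259 and 0.714 for Trem3, 0.276 and 1.01 for Trem1 and 0.289 and 0.662 for Clec4d. For Clec4n it was 0.543 and 0.651, and for Clec4a2 0.643 and 0.744. Clec12a varied more relative to the neutrophil markers, at 0.864, than in its level, at 0.668. Relative to the summed classical monocyte markers the standard deviation was lowest for Clec12a, at 0.458, and Clec4a2, at 0.467, and 0.705 and 0.812 for Clec4e and Trem1. Classical monocyte markers were not singled out for Clec12a. Relative to the summed nonclassical monocyte markers it had 0.444, and Clec4a2 had 0.621. Relative to the summed dendritic cell markers Clec12a had 0.518, Clec4a2 0.564 and Clec4d 0.507.

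**Figure D4:**
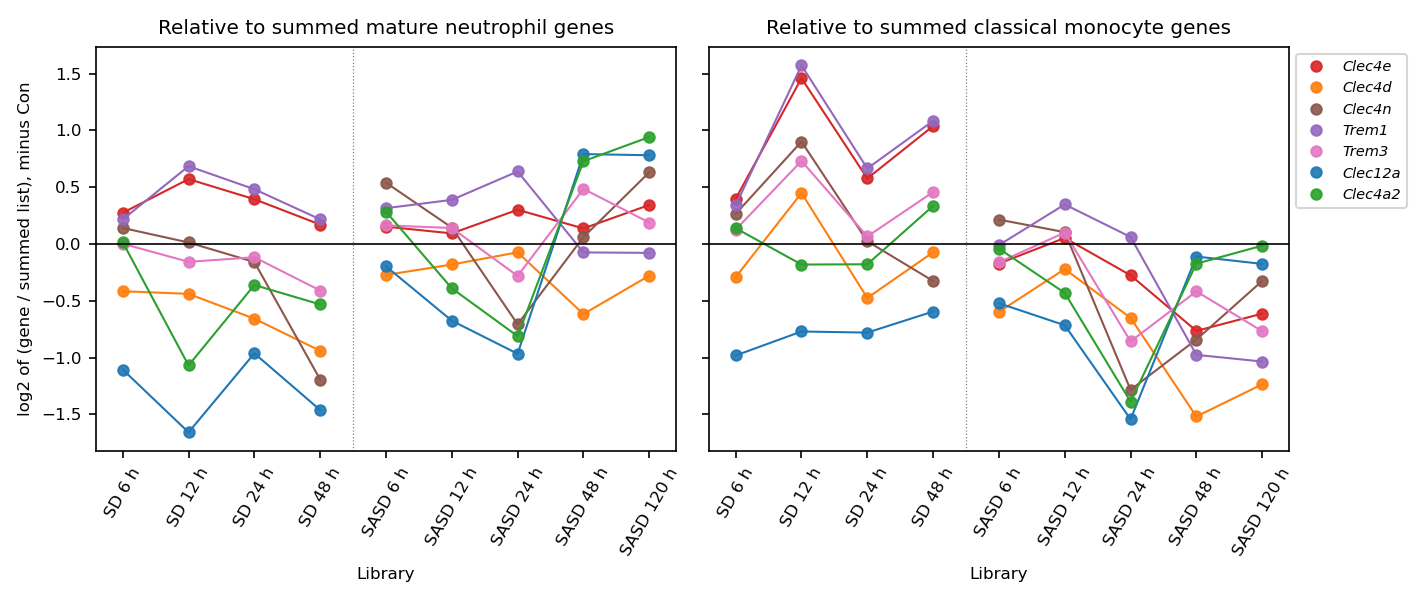
Each receptor gene relative to the summed mature neutrophil markers and to the summed classical monocyte markers, as a log2 value minus that of Con, in the other 9 libraries; lines join the times of a method. Relative to neutrophil markers Clec4e has a standard deviation of 0.167 and Clec12a of 0.864, and relative to monocyte markers they have 0.705 and 0.458.

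Across the 10 libraries the log2 levels of the receptor genes were compared pairwise by Pearson's r, as a description without a test. The highest values were 0.979 for Clec4d with Trem1, 0.975 for Clec4e with Trem1 and 0.961 for Clec4d with Clec4e. The lowest were 0.203 for Clec12a with Trem1 and 0.218 for Clec12a with Clec4d, whereas Clec12a and Clec4a2 had 0.851. All genes share the same libraries, depth and scaling, which enters these values. Clec4e was most like Klhl2 (0.988), Lmnb1 (0.988) and Picalm (0.987) among all genes averaging 100 counts or more. Clec4d was most like the complement receptor gene C5ar1 (0.976), the itaconate enzyme gene Acod1 (0.972) and Fbxl5 (0.971), and Trem1 like C5ar1 (0.992), Chil1 (0.990) and the granule lipocalin gene Lcn2 (0.988). The nearest genes of Trem3 were Dhrs7 (0.986), Bin3 (0.981) and Fxyd5 (0.979). Clec12a was most like Clec4a3 (0.963), the lysosomal protease gene Ctss (0.962) and Tnfsf13 (0.960), and Clec4a2 like Dhrs1 (0.961), C1galt1c1 (0.958) and Gmppb (0.953). Clec4n, with few counts, was most like Lilrb4a (0.953), Preb (0.945) and Slfn1 (0.944).

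From Clec4a1 to Clec4e, chr6:122921848-123289870, lie 9 lectin genes, 7 of them averaging 10 counts or more, and 2 were called in the slope difference, Clec4d and Clec4e. Clec4a1 and Clec4a3, at the other end, had log2 ratios over Con (prior count of 2) of 1.35 and 1.12 at SD 48 h and 1.44 and 1.21 at SASD 48 h, so the values of the 2 methods lay close together at 48 h. At 24 h SD over SASD was 2.40 for Clec4a1 (2.04 to 2.84) and 3.09 for Clec4a3 (2.54 to 3.79). From 9830107B12Rik to Treml1, chr17:48125605-48367176, lie 9 genes of the Trem cluster, of which A530064D06Rik and Trem3 were called in the slope difference. A530064D06Rik, next to Trem1, had a slope difference of 0.75 ± 0.12 (edgeR adjusted p = 0.0441). 9830107B12Rik had an SD slope of 1.24 ± 0.08 (0.0355) and was called in the SD trend. At SD 48 h and SASD 48 h over Con the log2 ratios were 3.74 and 0.89 for 9830107B12Rik, 3.16 and 1.13 for A530064D06Rik, 2.63 and 0.14 for Trem1, 2.001 and 0.69 for Trem3, 1.84 and 1.62 for Trem2 and -0.08 and -0.84 for Treml1. Treml4 went the other way, at 0.48 and 0.80, while B430306N03Rik had 1.16 and 0.72 and Treml2 0.17 and -0.34. The 2 windows were drawn after the values had been seen, and the ratios of both methods share the Con library.

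**Figure D5:**
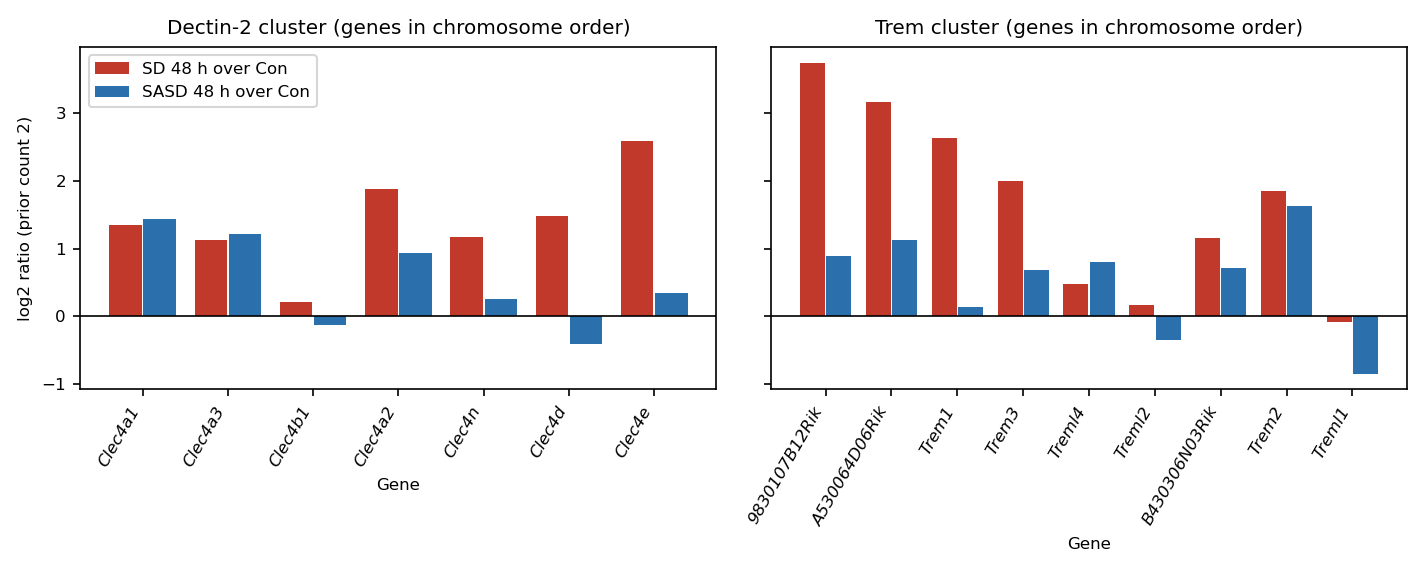
Log2 ratio over Con (prior count of 2) at SD 48 h and at SASD 48 h for 7 genes of the lectin cluster, those averaging 10 counts or more, and the 9 genes of the Trem cluster, in genomic order, with no error bars since each bar compares 2 single libraries. Clec4d, Clec4e, Trem1, 9830107B12Rik and A530064D06Rik stand higher at SD 48 h than at SASD 48 h, whereas Clec4a1 and Clec4a3 have nearly the same value at both 48 h libraries. Treml4 stands at 0.48 at SD 48 h and 0.80 at SASD 48 h.

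Among genes that work with these receptors, 1 passed the test. Pglyrp1, a peptidoglycan-binding protein of neutrophil granules that has been proposed as a Trem1 ligand, had 66.1, 112, 120.0 and 186 CPM at 6, 12, 24 and 48 h of SD, against 69.5, 59.8, 67.5, 61.5 and 61.2 CPM under SASD (6 to 120 h) and 55.3 CPM in Con. Its SD libraries from 12 h on lay above all others, and its slope was steeper under SD than under SASD by 0.44 ± 0.06 (edgeR adjusted p = 0.0271). It was the 1 call among 4 ligand genes, where 0.41% of all genes were called. This call too depended on single libraries. Without SD 24 h, SASD 12 h, SASD 24 h or SASD 48 h, 0 genes of the whole table were called higher under SD. Vim, which encodes vimentin, had a slope difference of 0.25 ± 0.05 (0.0875), Lgals9, a galectin gene, 0.09 ± 0.04 (0.713), and Sap130, the gene of the nuclear protein that Clec4e binds, -0.05 ± 0.04 (0.905).

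Of the 3 adaptor genes 0 were called, where 0.41% of all genes were. All 3 slope differences were above 0 with an unadjusted p under 0.05, which 5.57% of all genes reached in that direction. Tyrobp, the adaptor of the Trem receptors, had 156, 237, 305 and 391 CPM at 6, 12, 24 and 48 h of SD, against 146, 115, 105, 252 and 195 CPM under SASD (6 to 120 h) and 171 CPM in Con. It overlapped between the methods, since SASD 48 h lay above SD 12 h, and its slope difference was 0.35 ± 0.11 (edgeR adjusted p = 0.399). Fcer1g, the adaptor of the activating lectins, had 124, 166, 208 and 209 CPM under SD (6 to 48 h), against 145, 122, 162, 131 and 124 CPM under SASD (6 to 120 h) and 96.9 CPM in Con. Its slope difference was 0.17 ± 0.07 (0.550). Hcst, the adaptor DAP10, had 0.21 ± 0.08 (0.476).

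Genes further down the pathway gave no call, but at a share of 0.41% over all genes lists this short hold few or none. Of 14 genes for kinases and scaffolds 0 were called, with a median slope difference of 0.06. An unadjusted p under 0.05 with a slope difference above 0 was reached by 3 of the 14, beside 5.57% of all genes. Syk itself had 0.01 ± 0.06 (edgeR adjusted p = 0.993), Lyn 0.01 ± 0.07 (0.992), Pik3cd 0.07 ± 0.05 (0.893) and Prkcd 0.01 ± 0.07 (0.995). Card9 and Fgr, a kinase gene of the Src family, were chosen after their values had been seen. Card9 had a slope difference of 0.34 ± 0.13 (0.507). It stood at SD over SASD ratios of 0.853 at 6 h (0.722 to 1.01), 2.45 at 12 h, 3.5 at 24 h and 1.18 at 48 h. Fgr had a slope difference of 0.35 ± 0.12 (0.424) and ratios of 0.876 (0.821 to 0.934), 2.96, 1.69 and 1.75 at these times. Of 7 genes that brake Syk or act at inhibitory motifs 0 were called, with a median of -0.02. The phosphatase gene Ptpn6 at 0.00 ± 0.08 (0.997) and the lipid phosphatase gene Inpp5d at -0.02 ± 0.06 (0.970) were among them. An unadjusted p under 0.05 was reached by 0 of these 7. Of 10 output genes with enough counts out of 15 listed, 3 had an unadjusted p under 0.05 above 0 and 1 below 0. After adjustment 0 of the 10 were called, 5 lying above and 5 below 0. Il1b, the inflammatory cytokine gene, was the most abundant of these, with 204, 479, 454 and 440 CPM under SD (6 to 48 h), against 163, 119, 163, 134 and 142 CPM under SASD (6 to 120 h) and 97.8 CPM in Con. All 4 SD libraries lay above the rest, and its slope difference was 0.67 ± 0.13 (0.0814). Nlrp3, the inflammasome sensor gene, had 0.34 ± 0.10 (0.293), Egr3 -0.22 ± 0.09 (0.592) and Tnf -0.03 ± 0.21 (0.987).

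Among other receptors of the same families 0 of 14 lectin genes and 0 of 11 Trem and paired receptor genes were called. The share over all genes was 0.41%, so 0 calls in lists this short say little. An unadjusted p under 0.05 with a slope difference above 0 was reached by 1 of the 14 and 5 of the 11, beside 5.57% of all genes. Cd300lf, a lipid-binding receptor of myeloid cells, had 147, 364, 309 and 282 CPM at 6, 12, 24 and 48 h of SD, against 140, 110, 95.02, 73.3 and 69.4 CPM under SASD (6 to 120 h) and 68.8 CPM in Con. All 4 SD libraries lay above the rest, though SD over SASD at 6 h was only 1.05 (0.980 to 1.13). Its slope difference was 0.70 ± 0.15 (edgeR adjusted p = 0.119). Clec5a, a Tyrobp-coupled lectin, Pilra, an inhibitory paired receptor, and Cd300ld, an activating relative of Cd300lf, were chosen after their values had been seen. Clec5a had 0.38 ± 0.09 (0.141), with SD over SASD at 0.998, 2.21, 1.97 and 2.12 at 6, 12, 24 and 48 h. Pilra had 0.35 ± 0.07 (0.119) and Cd300ld 0.33 ± 0.08 (0.149). Cd300a, an inhibitory relative, had 0.10 ± 0.08 (0.889) and Treml2, a receptor of B cells and myeloid cells, -0.05 ± 0.12 (0.954). The platelet receptor genes Clec1b and Treml1 had -0.09 ± 0.20 (0.953) and -0.15 ± 0.22 (0.932). Clec2i and Clec2d, ligands of NK cell receptors, had 0.04 ± 0.07 (0.936) and 0.06 ± 0.21 (0.975), and Clec4a1 had 0.13 ± 0.12 (0.914).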

How the data were processed

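Blood RNA of 10 pooled libraries was measured, 1 per group. Trimming was done with Trimmomatic 0.39 and alignment to mm10 with STAR 2.7.9a, per the submitters' processing notes. Exonic read pairs were then summed per gene by the authors with featureCounts 2.0.3, per the file headers, with no strand option and without reads of several places or genes, so overlapping and antisense genes and close copies are uncertain. The deposited table holds raw counts of 32285 genes. Symbols, positions and exon lengths came from GENCODE release M21, promoters from RefSeq (GRCm38.p6).

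From the counts, TMM factors, CPM and quasi-likelihood tests (Benjamini-Hochberg, 0.05) were computed in edgeR 4.0.16 with R 4.3.3 for genes averaging 10 counts or more, and DESeq2 1.42.0 was an alternative. SD against SASD was blocked by time. Residual degrees of freedom were 3 for it, 3 for the SD trend, 4 for the SASD trend and 6 for their difference, which left out SASD 120 h. Standard errors came from the estimate and its F value. The fits were also run on simulated counts with planted changes, drawn with the spread estimated in these same libraries. Such a run cannot show how the fits handle spread between pools. Single libraries were compared by ratios of scaled counts with exact conditional binomial (Clopper-Pearson) intervals of 95% (scipy 1.17.1). Ratios counted as 2-fold used a prior count of 2 and an average of 25 counts or more in the pair.

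The 7 genes, the lists and the tests were chosen with earlier results of these data known. Named from each list were genes past a threshold and otherwise up to 4 with the highest mean level, and for each receptor gene the 3 with the highest r. Alternatives were DESeq2, RLE factors, other count minimums, leaving out libraries, a term for the haemoglobin split (under 1% or above) and linear hours. Fits without Con and the 48 h libraries were added after the data had been seen.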

Additional observations from a re-analysis of the deposited data

Results flagged for a closer look

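For 3 of the 7 receptor genes the test of the difference between the SD and SASD trends itself passed the threshold. The SD slope minus the SASD slope was 0.74 for Clec4e, 0.51 for Clec4d and 0.50 for Trem3 on the log2 scale per step of the time scale (edgeR adjusted p = 0.0267, 0.0494 and 0.0290). This fit covers 6 to 48 h and leaves out SASD 120 h. The calls depended on single libraries and on the settings. None of the 3 genes was called without SD 12 h, SD 24 h, SD 48 h, SASD 12 h, SASD 24 h or SASD 48 h, or in linear hours. With RLE factors Clec4d was not called. The summed mature neutrophil markers stood at 3168 to 11630 CPM under SD, against 2079 to 2855 CPM under SASD, and their part in these differences was not tested.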

How the results depend on the processing

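Counts of called genes moved with the settings. For SD against SASD edgeR called 0 genes, DESeq2 169, no count minimum 389 and fits without 1 time 0 to 237. For the SD trend the count was 18, with DESeq2 456, with no minimum 63, without 1 library 0 to 511, with the haemoglobin term 796, in linear hours 0 and without Con and SD 48 h 314. For the SASD trend it was 0, and 0 to 1 without 1 library. For the slope difference it was 58, with DESeq2 272, with no minimum 88, without 1 library 0 to 117, with the haemoglobin term 264, in linear hours 6 and without Con and the 48 h libraries 197. Among genes averaging 100 counts or more the 2-fold genes numbered 17 against 116 at 6 h, 216 against 331 at 12 h, 497 against 788 at 24 h and 379 against 727 at 48 h of SD over SASD. They numbered 581 against 1676 for SD 48 h over Con, 337 against 1202 for SASD 48 h over Con and 678 against 1072 for SASD 120 h over SASD 24 h.

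Among the receptor genes, the signs of the SD trend and of the slope difference held in every fit run. SASD slopes near 0 changed sign: without 1 library Clec4e ran from -0.043 to 0.10, Clec4n from -0.076 to 0.11, Trem1 from -0.25 to 0.085 and Trem3 from -0.035 to 0.13. Without Con and SASD 48 h they were -0.040 for Clec4e, -0.044 for Clec4n and -0.095 for Trem3, and in linear hours -7.19e-05 for Clec4e and -1.83e-04 for Trem3 per hour. For SD against SASD Clec12a ran from -0.094 to 0.57 without 1 time. The cause was not tested. Each group was 1 library, so there were no replicates to pair within a time. SD against SASD was blocked by time instead.

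Each group is 1 pool of 3 mice, so differences between mice enter no error given here. Clec4n, with 10 to 65 counts per library, is limited by depth.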
